A study of Mus musculus with 9 samples.

Results

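The 38 protein-coding Hox genes described here belong to the 4 mouse Hox clusters, and they were taken by name from the 48440 genes of the count tables. HoxA contributed 10 of them, HoxB 10, HoxC 9 and HoxD 9. Polyadenylated RNA was sequenced from J1 mouse embryonic stem cells in 3 groups of 3 libraries. The cells of each group carried Suz12-AID, a version of Suz12 fused to an auxin-inducible degron, a tag through which the plant hormone auxin (indole-3-acetic acid) directs the protein to degradation. Without Suz12, Polycomb repressive complex 2 (PRC2) is not stable and loses its activity. Cells of the Mock group are the controls, and what they received in place of auxin is not given in the sources used here. The Auxin group received 50 µM auxin for 96 h. The Reintroduction group also received 50 µM auxin for 96 h, which was then removed by a washout of 4.5 h. No group without the degron received auxin, so an effect of auxin itself was not tested. All groups grew on gelatin in medium with 15% serum, leukemia inhibitory factor, 1 µM PD0325901 and 3 µM CHIR99021, so each was cultured in the presence of MEK and GSK3 inhibitors. Whether the degron line is a single clone, and which cultures the biological replicates came from, is not given, so the p-values measure the spread between these samples.

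Hox genes encode homeodomain transcription factors that give cells their position along the head-to-tail axis. Within a cluster the genes are numbered by paralogue group, and low numbers act toward the head while high numbers act toward the tail. In embryonic stem cells the clusters are a classic target of PRC2, which methylates lysine 27 of histone H3 over them while the genes are silent or nearly so. The comparisons ask what happens to Hox transcripts when Suz12 is depleted by auxin, and how far they move in the first hours after auxin is removed.

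Promoter sequences are shown for the member with the largest rise in each cluster beside a member of the same cluster whose counts were too low to test, so that genes of 1 cluster with unlike transcript levels can be read together. Of the 38 genes, 22 matched a RefSeq promoter entry (GRCm38.p6). The 250 bases before the annotated start are printed 5′ to 3′ on the strand of the gene, with each CpG in capitals, since CpG-dense promoters are the usual sites of PRC2 in stem cells. Hoxa5 lies at chr6:52204588-52204837 (minus strand) and Hoxa6 at chr6:52208673-52208922 (minus strand). Hoxb4 lies at chr11:96318017-96318266 (plus strand) and Hoxb1 at chr11:96365508-96365757 (plus strand). Hoxd9 lies at chr2:74697513-74697762 (plus strand) and Hoxd10 at chr2:74691641-74691890 (plus strand). Hoxc4, at chr15:103034145-103034394 (plus strand), was the only HoxC gene with an entry and was chosen after its values were seen.
Hoxa5: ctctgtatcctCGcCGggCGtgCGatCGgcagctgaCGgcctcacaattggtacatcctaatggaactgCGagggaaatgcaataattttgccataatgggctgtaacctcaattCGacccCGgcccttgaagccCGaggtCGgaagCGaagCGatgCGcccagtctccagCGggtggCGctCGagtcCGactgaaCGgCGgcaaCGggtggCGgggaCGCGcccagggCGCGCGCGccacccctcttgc
Hoxa6: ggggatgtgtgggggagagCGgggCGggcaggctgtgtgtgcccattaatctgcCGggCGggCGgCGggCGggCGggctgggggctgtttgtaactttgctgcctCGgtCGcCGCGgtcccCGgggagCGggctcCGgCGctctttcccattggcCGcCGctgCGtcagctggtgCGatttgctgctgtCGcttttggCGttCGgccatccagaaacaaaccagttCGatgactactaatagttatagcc
Hoxb4: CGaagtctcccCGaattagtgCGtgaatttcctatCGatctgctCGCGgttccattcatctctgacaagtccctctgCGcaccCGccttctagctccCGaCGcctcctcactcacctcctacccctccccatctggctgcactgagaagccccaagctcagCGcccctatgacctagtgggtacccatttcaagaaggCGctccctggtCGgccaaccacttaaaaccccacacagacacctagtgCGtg
Hoxb1: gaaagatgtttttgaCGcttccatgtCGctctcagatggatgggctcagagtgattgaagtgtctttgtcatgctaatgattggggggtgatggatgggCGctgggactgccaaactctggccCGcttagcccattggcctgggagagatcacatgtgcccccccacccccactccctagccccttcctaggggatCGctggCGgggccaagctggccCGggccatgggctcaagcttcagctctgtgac
Hoxd9: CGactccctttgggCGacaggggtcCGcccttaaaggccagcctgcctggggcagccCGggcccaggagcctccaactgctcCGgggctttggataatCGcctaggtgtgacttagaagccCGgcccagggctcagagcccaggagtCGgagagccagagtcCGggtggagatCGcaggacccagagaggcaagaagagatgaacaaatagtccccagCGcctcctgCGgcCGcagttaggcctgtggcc
Hoxd10: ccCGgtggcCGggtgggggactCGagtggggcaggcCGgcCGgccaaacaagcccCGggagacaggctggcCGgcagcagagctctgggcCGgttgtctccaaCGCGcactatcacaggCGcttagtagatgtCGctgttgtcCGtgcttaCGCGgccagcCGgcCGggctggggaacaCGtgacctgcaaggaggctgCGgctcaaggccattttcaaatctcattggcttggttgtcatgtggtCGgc
Hoxc4: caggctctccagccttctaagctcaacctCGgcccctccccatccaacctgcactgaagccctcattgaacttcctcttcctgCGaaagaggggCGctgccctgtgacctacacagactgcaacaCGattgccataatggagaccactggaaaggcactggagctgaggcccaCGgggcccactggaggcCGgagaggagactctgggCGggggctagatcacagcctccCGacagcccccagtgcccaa

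These windows held 28 CpG in Hoxa5 and 24 in Hoxa6, 14 in Hoxb4 and 7 in Hoxb1, 13 in Hoxd9 and 20 in Hoxd10, and 8 in Hoxc4. Over the 24 entries of Hox genes the median was 12.5 CpG in 250 bases, with a range from 2 to 35. The median of the 32841 entries used for all genes was 6. Left out of these were the entries of a chromosome that holds no Hox cluster and those with incomplete or ambiguous sequence. The median GC content was 58.6% in Hox entries and 52.4% in all entries. Entries of Hox genes that were called higher in Auxin than in Mock held a median of 13 CpG (9 entries). Those of untested Hox genes held 12.5 (10 entries), so these medians were close. The untested genes include Hoxa6 and Hoxd4, which were called higher without a filter on counts. The medians therefore do not set genes that rose against genes that did not. Each of the following motifs was searched on both strands of the same windows. GCN repeated 4 times was in 12.5% of the Hox entries (Hoxa3, Hoxa6 and Hoxd1) and in 3.96% of all entries. GAGAGA was in 25% of the Hox entries, among them those of Hoxa7, Hoxb1, Hoxd4 and Hoxd13, and in 20.2% of all entries. TGATNNAT, the core of the composite site of Hox proteins and their partner Pbx, was in 16.7% of the Hox entries and in 7.69% of all entries, and Hoxa2, Hoxb1, Hoxb8 and Hoxd11 carried it. The direct repeat AGGTCA, with 5 bases between its copies, was in 0 Hox entries and in 3 of all entries. These matches describe letters in a window, and binding was not measured.

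Library totals ran from 44341283 to 113931419 counts, with both mates of a pair counted, and the sum over the 38 Hox genes ran from 3086 to 6907 counts per library. Values are given as CPM, read counts brought to the same library total in every sample after scaling by TMM factors, which adjust for library composition. Levels of different genes are compared only per kilobase of exon. The degron acts on protein and Suz12 protein was not analysed here. Suz12 mRNA was 133 ± 6.62 CPM in Mock, 141 ± 16.9 in Auxin and 168 ± 4.47 in Reintroduction (SD, n = 3). Log values correlated at 0.989 to 0.995 between libraries of a group and at 0.936 to 0.977 between libraries of different groups. Pluripotency markers were abundant in every group, with a sum over 9 genes of 5191 to 5444 CPM in Mock, 5987 to 6496 in Auxin and 4602 to 4677 in Reintroduction. Against Mock, 6 of the 9 were higher in Auxin and 3 were lower (Pou5f1, Dppa5a and Utf1). In Reintroduction 1 was higher and 4 were lower. The marker counts here and below are read beside the calls over all 20838 genes tested (edgeR, adjusted p under 0.05). With Mock as the reference, 38.4% of these genes rose and 34.8% fell in Auxin. For Reintroduction the shares were 34.7% and 33.4%. A difference between the markers and these shares was not tested. Pou5f1 had log2 fold changes against Mock of -0.53 in Auxin and -0.55 in Reintroduction. The 7 endoderm markers summed to 5.18 to 6.73 CPM in Mock, 21.5 to 22.4 in Auxin and 13.7 to 15.4 in Reintroduction, and 6 of the 6 tested were higher in Auxin. The 7 trophoblast markers summed to 42.7 to 46.8, 116.9 to 131.4 and 107.5 to 110.2 CPM in the same order, and 5 of the 6 tested were higher in Auxin. The other, Cdx2, was lower, with a log2 fold change of -4.32. Of the 7, 3 were under 1 CPM in Mock, 4 in Auxin and 4 in Reintroduction, so the sum rests on few genes. The 7 mesoderm markers summed to 47.8 to 49.2, 26.1 to 28.8 and 68.5 to 71.2 CPM, a sum that is mostly Eomes (means of 35.4, 25.6 and 66.9 CPM). Of the 5 tested, 1 was higher than Mock in Auxin (Foxc2, with a log2 fold change of 1.00) and 3 were lower. The lower genes were T (-5.23), Mixl1 (-2.52) and Eomes (-0.46). In Reintroduction 1 was again higher than Mock and 3 were lower, but the higher gene was Eomes (0.92). There the lower genes were T (-2.84), Mixl1 (-2.04) and Foxc2 (-1.80). The 7 neural markers summed to 124.1 to 133.0, 142.8 to 160.2 and 134.1 to 138.1 CPM, with Neurog2 at 0 in all libraries. Of the 6 tested, 2 were higher in Auxin (Otx2, by 3.08 on the log2 scale, and Map2) and 3 were lower (Pax6, Nes and Tubb3), with a median log2 fold change of -0.43. Fibroblast markers, which feeder cells would bring, were under 1 CPM for 8 of 10 genes in each group, Twist2 was at 0 in all libraries, and their sum (22.0 to 24.7, 44.2 to 53.5 and 41.0 to 42.3 CPM) was mostly Thy1. In bulk RNA, more cells of a type and more RNA per cell cannot be told apart, and the part that these markers' cell types have in the Hox values was not tested.

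Hox transcripts were scarce in Mock, and HoxC made up most of them. Of the 38 genes, 20 were under 1 CPM in all 9 libraries. Summed over its 9 genes, HoxC stood at 33.9 ± 0.264 CPM in Mock (SD, n = 3), against 6.30 ± 0.0342 for HoxB, 1.96 ± 0.166 for HoxA and 1.47 ± 0.224 for HoxD. That placed 77.7% of the summed Hox CPM of Mock in HoxC, as counts not scaled for length. Per kilobase of exon, the highest Mock levels were those of Hoxc13, a regulator of hair and nail keratins, at 5.15 CPM per kilobase, and Hoxc12 at 3.45. They were followed by Hoxc11 at 2.10, Hoxb9 at 2.06, Hoxc10 at 2.05 and Hoxc4 at 1.78. Hoxc11, Hoxb9 and Hoxc10 did not differ beyond their spread in Mock. The plot of length-scaled levels shows the posterior end of HoxC as the most expressed stretch of the 4 clusters.

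**Figure D1:**
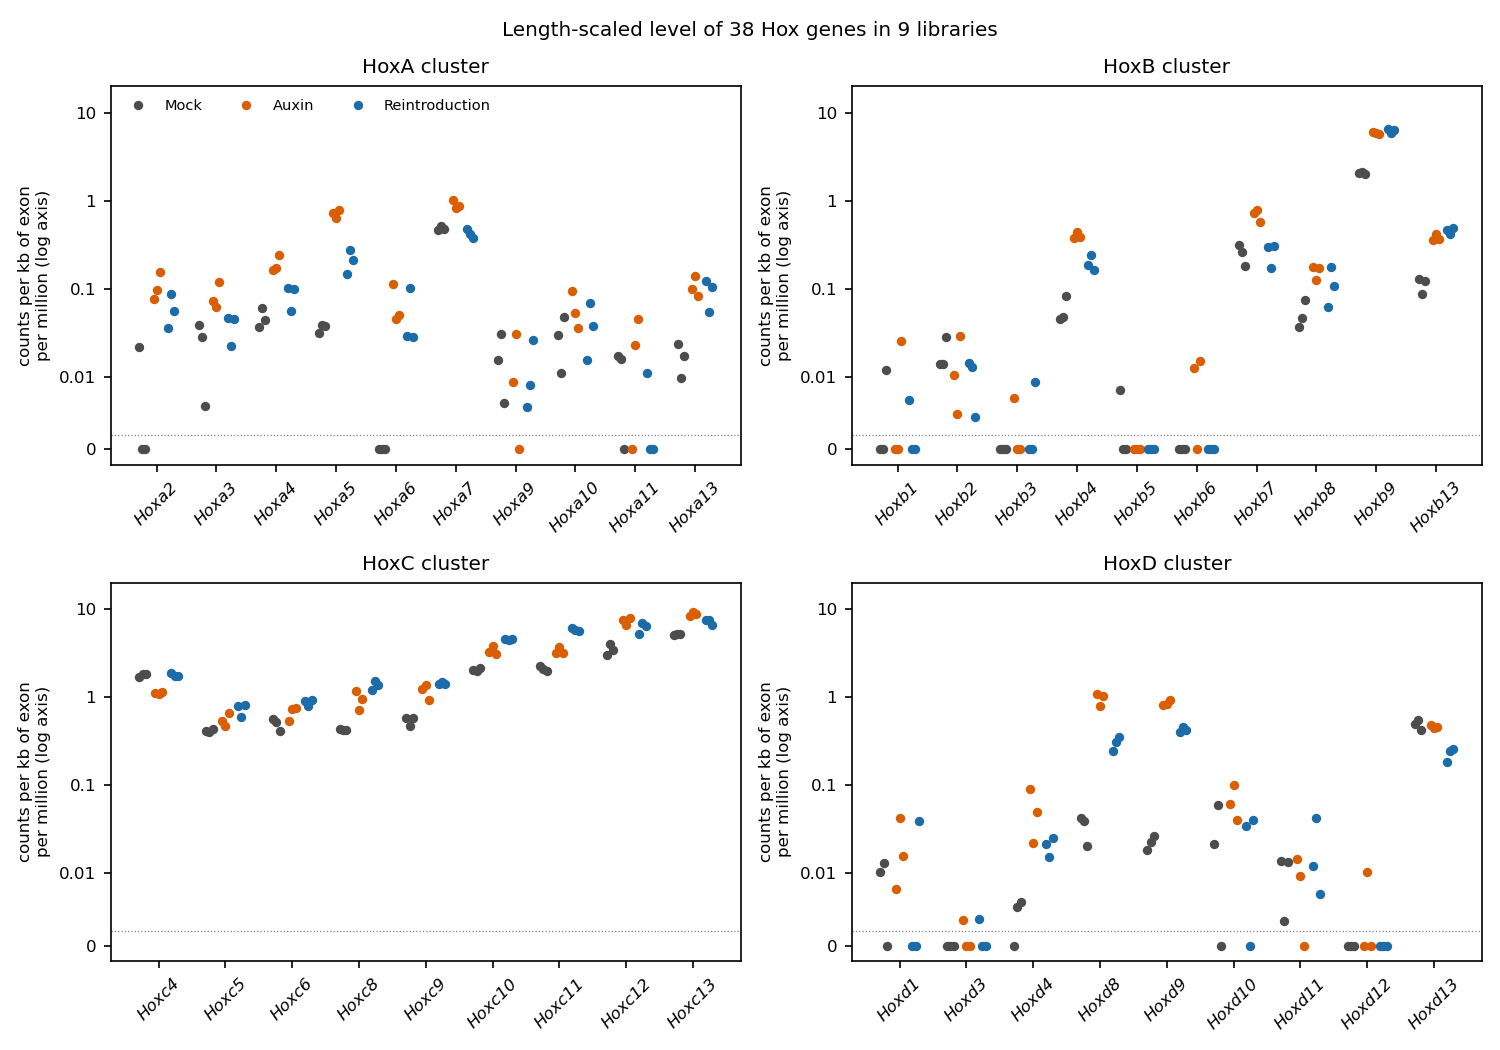
Length-scaled level (CPM per kilobase of exon, log axis, with values of 0 placed under the dotted line) of the 38 Hox genes in each of 9 libraries, by cluster and paralogue number; each point is 1 library, grey for Mock, orange for Auxin and blue for Reintroduction. HoxC genes from Hoxc10 to Hoxc13 and Hoxb9 are the highest in all groups, and Hoxa5, Hoxd8 and Hoxd9 are among those with the widest gap between Mock and Auxin.

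Most measurable Hox genes were higher in Auxin than in Mock. Of the 25 members with enough counts for a test, 21 were higher, 1 was lower (Hoxc4) and 3 had no call (Hoxa9, Hoxa10 and Hoxd13) by edgeR's quasi-likelihood test at an adjusted p-value under 0.05. Calls were common in this comparison: 73.2% of the 20838 genes tested were called, 38.4% as higher and 34.8% as lower. The median log2 fold change was 1.14 over the tested Hox genes and 0.05 over all genes tested. The Auxin libraries lay wholly above the Mock libraries for 20 of the 25 and wholly below for 1, and this held for 38.4% and 35.8% of all genes tested. A gene low in Mock can pass the filter on counts through the group in which it is high, so these counts describe the tested members and do not stand for all 38. By cluster, 6 of 8 tested genes rose in HoxA, 5 of 5 in HoxB, 8 of 9 in HoxC and 2 of 3 in HoxD. The median log2 fold change of the tested members was 1.87 in HoxA, 1.62 in HoxB, 0.72 in HoxC and 4.77 in HoxD. The filter left out 2 genes of HoxA, 5 of HoxB and 6 of HoxD but 0 of HoxC. These medians therefore do not rank the whole clusters, and a relation between Mock level and rise cannot be told apart from the filter.

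**Figure D2:**
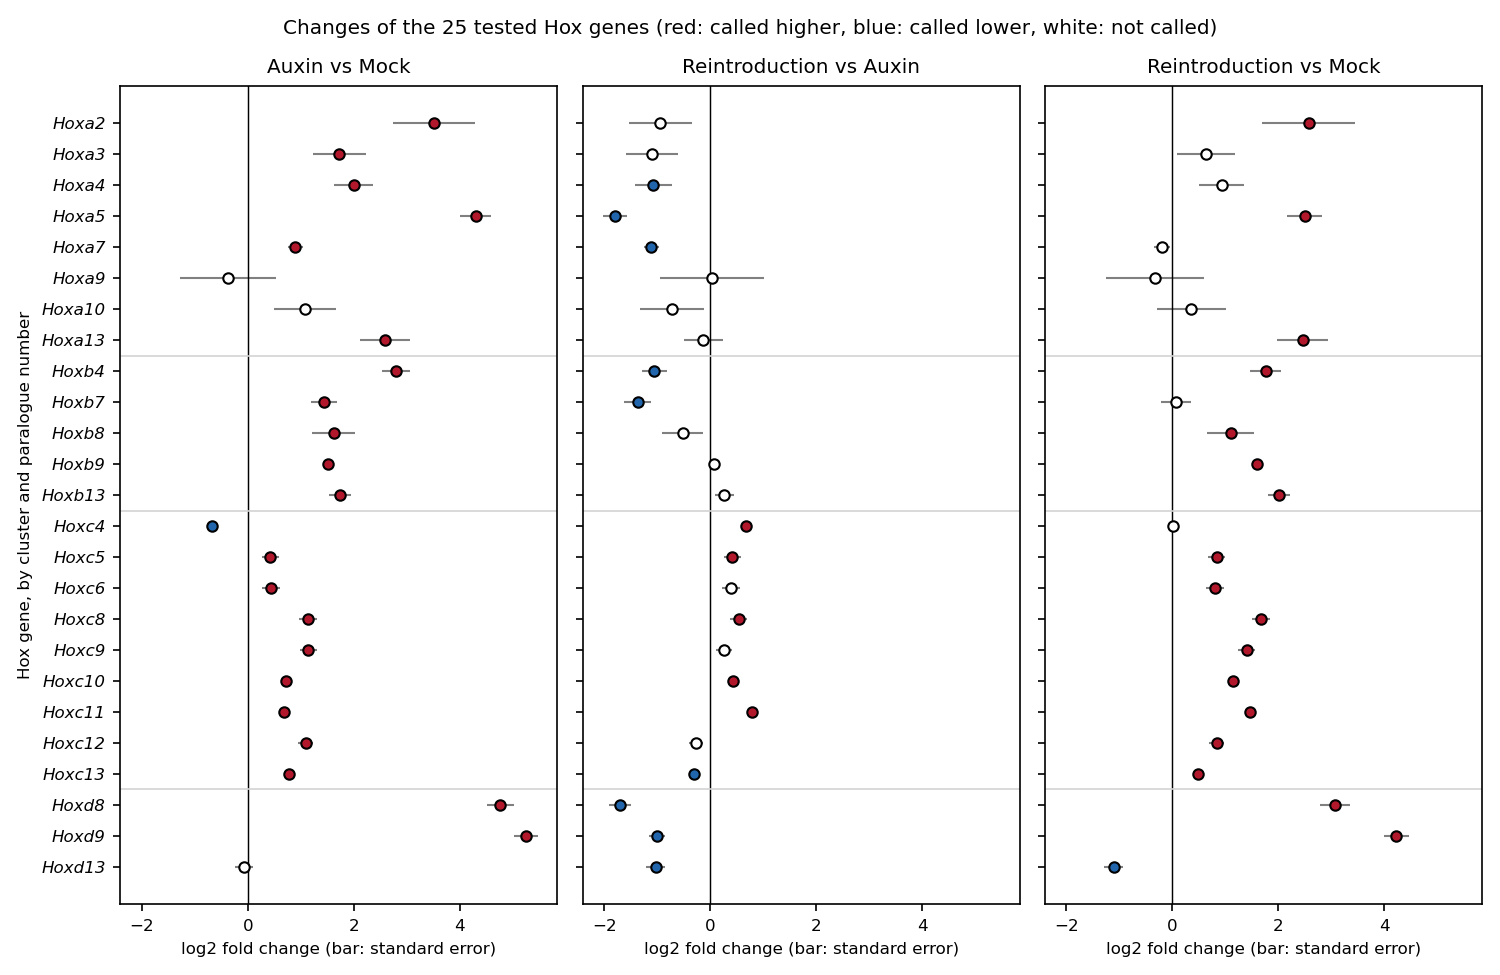
Log2 fold change with its standard error (horizontal axes) for the 25 tested Hox genes in the 3 comparisons, by cluster and paralogue number; red points were called higher, blue points lower and white points had no call. Auxin against Mock has 21 red points, Reintroduction against Auxin mixes 5 red HoxC points with 9 blue points, and Reintroduction against Mock has 17 red points.

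In HoxA the largest rise was that of Hoxa5, which patterns the neck and the lung. Hoxa5 measured 0.0582, 0.0724 and 0.0699 CPM in Mock replicates 1 to 3, 1.35, 1.18 and 1.46 in Auxin, then 0.276, 0.512 and 0.392 in Reintroduction. The 3 groups did not overlap, and Reintroduction lay between the others. The change from Mock to Auxin was 4.30 in log2 units (SE 0.29, 19.6-fold, adjusted p = 1.27e-07, edgeR).

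Hoxa2, a gene of the hindbrain and second pharyngeal arch, measured 0.0388, 0 and 0 CPM in Mock, 0.134, 0.171 and 0.278 in Auxin, then 0.0627, 0.156 and 0.0980 in Reintroduction. The Auxin group stood 3.51 above Mock in log2 units (SE 0.77, adjusted p = 1.56e-03), on 4 counts over the Mock group against 43 in Auxin. All 4 Mock counts came from replicate 1, and without that library the fitted value was 6.83, with 0 counts then held by Mock.

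Hoxa13, of the digits and hindgut, measured 0.0582, 0.0241 and 0.0420 CPM in Mock, 0.244, 0.341 and 0.205 in Auxin, then 0.301, 0.134 and 0.257 in Reintroduction. Both later groups lay above Mock and overlapped each other. The rise in Auxin was 2.59 on the log2 scale (SE 0.47, adjusted p = 3.86e-04). Hoxa7, a thoracic patterning gene and the highest called HoxA gene per kilobase, measured 1.33, 1.497 and 1.39 CPM in Mock, 2.95, 2.39 and 2.53 in Auxin, then 1.37, 1.20 and 1.08 in Reintroduction. Auxin stood clear of both other groups, which overlapped. Hoxa7 rose by 0.90 (SE 0.14, adjusted p = 9.92e-05).

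Among the remaining HoxA genes, Hoxa3 (thymus and parathyroid) rose by 1.73 (SE 0.50) and Hoxa4 by 2.00 (SE 0.37). Hoxa9 and Hoxa10, both known from leukaemia, had log2 fold changes of -0.37 (SE 0.91) and 1.08 (SE 0.59) with no call. Hoxa6, which lies between Hoxa5 and Hoxa7, failed the filter with 0 counts over the Mock group, 14 over Auxin and 8 over Reintroduction. Against a floor of 3 counts over the Mock group it was at least 5.30-fold higher in Auxin. Hoxa11 had 7, 11 and 2 counts in the 3 groups, and its ratio of Auxin to Mock of 1.78 (95% interval of counting error 0.632 to 5.43) was not detectable as a difference at this depth. Hoxa3, Hoxa4, Hoxa2, Hoxa7 and Hoxa11 share 15.04% to 34.98% of their exon bases with other genes of the cluster, and counting without strand cannot tell their reads apart there.

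In HoxB the largest rise was that of Hoxb4, known for expanding blood stem cells. Hoxb4 measured 0.117, 0.121 and 0.210 CPM in Mock, 0.976, 1.12 and 0.979 in Auxin, then 0.477, 0.624 and 0.417 in Reintroduction. Its groups did not overlap, with Reintroduction in the middle. The rise in Auxin was 2.80 on the log2 scale (SE 0.27, 6.98-fold, adjusted p = 2.30e-06).

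Hoxb13, the tail-most gene of the cluster, measured 0.282, 0.193 and 0.266 CPM in Mock, 0.781, 0.918 and 0.803 in Auxin, then 1.02, 0.913 and 1.07 in Reintroduction. Hoxb8 measured 0.0971, 0.121 and 0.196 CPM in Mock, 0.464, 0.328 and 0.453 in Auxin, then 0.163, 0.468 and 0.282 in Reintroduction. Both were above Mock in every Auxin library, and for Hoxb8 the Reintroduction libraries overlapped both other groups. The rises in Auxin were 1.74 (SE 0.21, adjusted p = 1.47e-05) for Hoxb13 and 1.62 (SE 0.41, adjusted p = 4.14e-03) for Hoxb8.

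Hoxb9, a gene of the thoracic region, was the most abundant HoxB gene per kilobase, at 2.06, 5.88 and 6.19 CPM per kilobase in Mock, Auxin and Reintroduction. It measured 5.22, 5.46 and 5.22 CPM in Mock, 15.6, 15.2 and 14.6 in Auxin, then 16.7, 15.0 and 16.1 in Reintroduction. The Mock libraries were the lowest, and the other 2 groups overlapped. Its rise in Auxin was 1.51 (SE 0.066, adjusted p = 4.68e-09). Hoxb7 rose by 1.44 (SE 0.25), from 0.388 ± 0.103 to 1.07 ± 0.162 CPM (SD, n = 3).

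The 5 other HoxB genes failed the filter and are given as counts over the Mock, Auxin and Reintroduction groups. Hoxb1, a hindbrain gene that responds early to retinoic acid, had 2, 4 and 1. Hoxb2 had 16, 11 and 7, Hoxb3 had 0, 2 and 3, Hoxb5 had 2, 0 and 0, and Hoxb6 had 0, 4 and 0. Against the floor of 3 counts, Hoxb6 was at least 1.51-fold higher in Auxin than in Mock. Apart from Hoxb2, these genes were at or near the floor in every group, in a cluster whose members Hoxb4 and Hoxb7 rose. More than 50% of the exon bases of Hoxb3 (52.9%) are shared with an antisense gene.

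HoxC was the only one of the 4 clusters in which every listed member had enough counts for the test, and its changes were small beside those of the largest risers elsewhere. Hoxc8, which acts in motor neurons of the forelimb level, measured 1.24, 1.18 and 1.19 CPM in Mock, 3.29, 2.01 and 2.69 in Auxin, then 3.45, 4.28 and 3.92 in Reintroduction. Hoxc9, of thoracic motor neurons, measured 1.39, 1.14 and 1.40 CPM in Mock, 3.04, 3.36 and 2.25 in Auxin, then 3.41, 3.56 and 3.41 in Reintroduction. In both, Mock was lowest and Reintroduction highest, with no overlap between groups. Both rose in Auxin by 1.14 on the log2 scale, with SE 0.17 and adjusted p = 1.08e-04 for Hoxc8 and SE 0.16 and adjusted p = 4.37e-05 for Hoxc9.

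Hoxc12 measured 3.06, 4.13 and 3.497 CPM in Mock, 7.76, 6.78 and 8.22 in Auxin, then 5.38, 7.22 and 6.53 in Reintroduction. Hoxc13 measured 12.6, 12.7 and 12.7 CPM in Mock, 20.5, 22.8 and 21.8 in Auxin, then 18.3, 18.3 and 16.3 in Reintroduction. Every Auxin and Reintroduction library of these neighbours was above every Mock library. The rises in Auxin were 1.09 (SE 0.14, adjusted p = 2.18e-05) for Hoxc12 and 0.78 (SE 0.067, adjusted p = 9.28e-07) for Hoxc13. Hoxc12 rose by 1.70 where trends of each library with gene length and GC content were removed.

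Hoxc4, at the head end of the cluster, was the only Hox gene called lower in Auxin than in Mock. It measured 4.38, 4.68 and 4.69 CPM in Mock, 2.89, 2.78 and 2.97 in Auxin, then 4.86, 4.46 and 4.46 in Reintroduction. Auxin lay wholly below the other groups, which overlapped. The change in Auxin was -0.67 on the log2 scale (SE 0.086, 1.59-fold lower, adjusted p = 2.85e-05). Hoxc10 rose by 0.72 (SE 0.094) and Hoxc11, a hindlimb gene, by 0.68 (SE 0.091). Hoxc5 rose by 0.42 (SE 0.16) and Hoxc6 by 0.43 (SE 0.17), with the smallest differences of the called genes. Their calls were lost under 9 of 19 alternative settings for Hoxc5, with adjusted p from 5.65e-03 to 0.157, and under 11 of 19 for Hoxc6, with adjusted p from 5.37e-03 to 0.164.

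In HoxD a pair of neighbours showed the 2 largest changes of all Hox genes. Hoxd9, which acts in the forelimb, measured 0.0388, 0.0483 and 0.0560 CPM in Mock, 1.74, 1.78 and 1.99 in Auxin, then 0.866, 0.980 and 0.895 in Reintroduction. Hoxd8 measured 0.117, 0.109 and 0.0560 CPM in Mock, 2.99, 2.19 and 2.85 in Auxin, then 0.665, 0.847 and 0.956 in Reintroduction. For both, the 3 groups were apart and Reintroduction was intermediate. The rises in Auxin were 5.25 on the log2 scale for Hoxd9 (SE 0.22, 38.01-fold, adjusted p = 3.81e-09) and 4.77 for Hoxd8 (SE 0.26, 27.3-fold, adjusted p = 2.54e-08).

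Hoxd13, which shapes the digits, behaved unlike them. It measured 1.21, 1.36 and 1.05 CPM in Mock, 1.18, 1.12 and 1.14 in Auxin, then 0.452, 0.601 and 0.637 in Reintroduction. Mock and Auxin overlapped, and all Reintroduction libraries were lower. The Auxin value relative to Mock was -0.08 in log2 units (SE 0.17, adjusted p = 0.679) and 0.13 with scaling by total counts.

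The other 6 HoxD genes failed the filter. Hoxd4 had 2 counts over the Mock group, 37 over Auxin and 13 over Reintroduction, a ratio of Auxin to Mock of 21 after scaling for depth (95% interval of counting error 5.42 to 179.9). Hoxd4 shares 52.3% of its exon bases with Hoxd3 and noncoding genes. Hoxd10, next to Hoxd9, had 13, 28 and 11 counts. Hoxd1 had 4, 9 and 6, Hoxd3 had 0, 1 and 1, Hoxd11 had 11, 8 and 14, and Hoxd12 had 0, 2 and 0. Without a filter on counts, Hoxd4 (adjusted p = 6.95e-04) and Hoxa6 (adjusted p = 9.00e-03) were the only ones of the 13 untested genes called in Auxin against Mock, which brought the count to 23 higher and 1 lower. The counts include both mates of a pair, so intervals and floors cover counting error only and are too narrow for fragments.

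**Figure D3:**
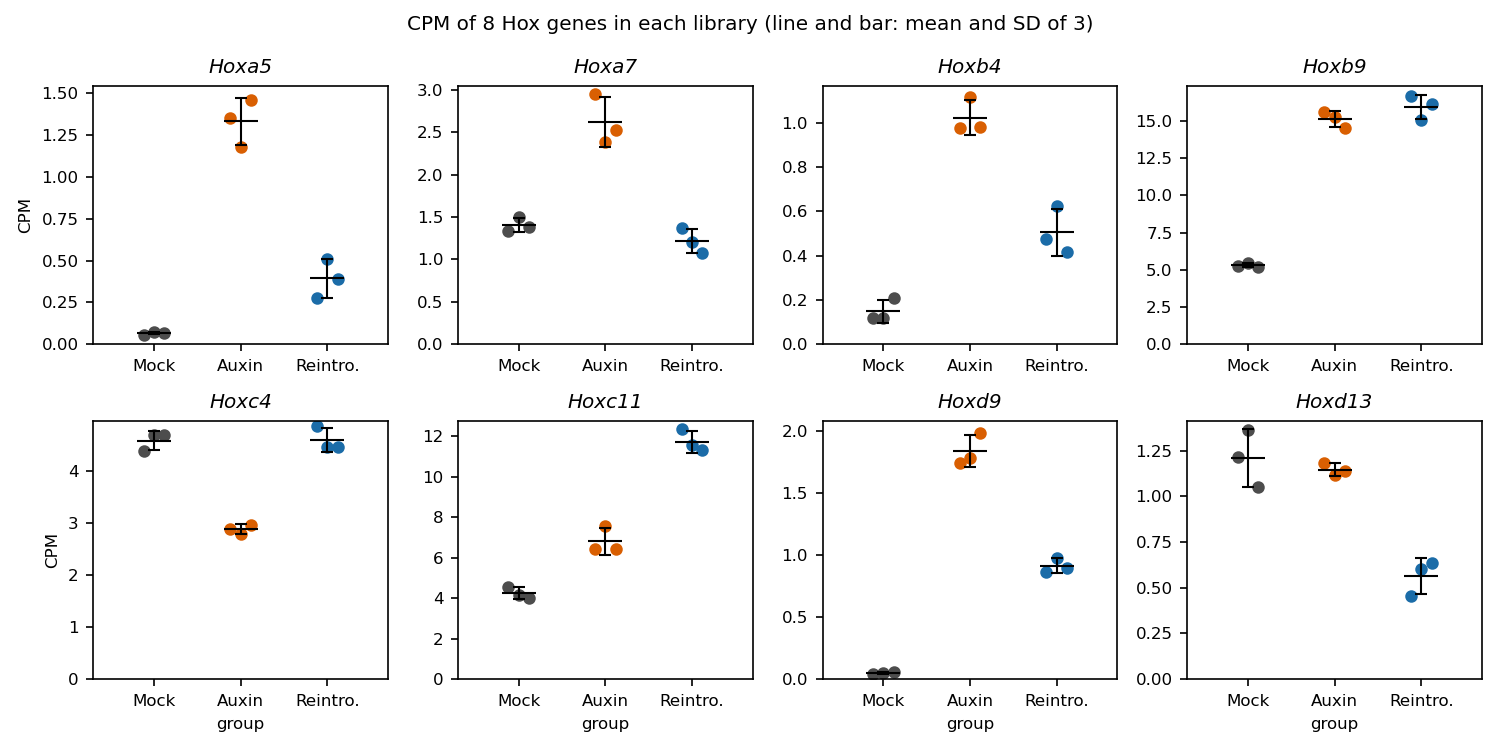
CPM (vertical axes, from 0) of 8 Hox genes in each of 3 libraries of Mock, Auxin and Reintroduction (points), with the mean and SD as a line and bar. Hoxa5, Hoxb4 and Hoxd9 are highest in Auxin and intermediate in Reintroduction, Hoxa7 in Reintroduction overlaps Mock with 1 library and lies below it with 2, Hoxb9 stays at the Auxin level, Hoxc11 is highest in Reintroduction, Hoxc4 is lowest in Auxin and Hoxd13 is lowest in Reintroduction.

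By paralogue number, 4 of 5 tested genes of groups 1 to 4 were higher in Auxin than in Mock and 1 was lower, with a median log2 fold change of 2.00. For groups 5 to 8 it was 8 of 8, with a median of 1.29, and for groups 9 to 13 it was 9 of 12, with a median of 1.09. Of all genes tested, 38.4% were higher and 34.8% lower. The filter left 5 of 11 members of groups 1 to 4, 8 of 11 of groups 5 to 8 and 12 of 16 of groups 9 to 13. The classes also differ in their clusters, so an order by paralogue number cannot be told apart from cluster or filter. The range within each class was wide: Hoxc4 fell while its paralogue Hoxb4 rose by 2.80, Hoxc8 rose by 1.14 and Hoxd8 by 4.77, and Hoxc9 rose by 1.14 and Hoxd9 by 5.25.

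After washout, the Hox genes called higher than in Auxin lay in HoxC, and most of those called lower lay in the other clusters. In Reintroduction against Auxin, 5 Hox genes were higher, 9 were lower and 11 had no call, with a median log2 fold change of -0.30 against 0.00 over all genes tested. Over all genes tested, 50.9% were called, 25.5% as higher and 25.5% as lower. Of the 25 tested Hox genes, 56% were called and 20% were higher, which is near these shares. A difference between the Hox genes and these shares was not tested. All 5 higher genes were in HoxC: Hoxc4, Hoxc5, Hoxc8, Hoxc10 and Hoxc11. The 9 lower genes were Hoxa4, Hoxa5, Hoxa7, Hoxb4, Hoxb7, Hoxc13, Hoxd8, Hoxd9 and Hoxd13, 1 of them in HoxC. The Reintroduction libraries lay wholly above the Auxin libraries for 6 Hox genes and wholly below for 10, against 28.8% and 29.4% of all genes tested. The median was -1.01 in HoxA, -0.52 in HoxB, 0.42 in HoxC and -1.03 in HoxD.

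The largest falls after washout were those of Hoxa5 and Hoxd8, both of which had risen strongly in Auxin. In log2 units, Hoxa5 fell by 1.80 (SE 0.23, adjusted p = 6.80e-05) and Hoxd8 fell by 1.70 (SE 0.20, adjusted p = 3.37e-05). Hoxb7 fell by 1.37 (SE 0.26, adjusted p = 1.14e-03), Hoxa7 fell by 1.11 (SE 0.14), Hoxb4 fell by 1.05 (SE 0.23) and Hoxd9 fell by 1.01 (SE 0.15). Hoxd13 fell by 1.03 (SE 0.18, adjusted p = 7.73e-04), from a level in Auxin that had no call against Mock. Hoxa4 fell by 1.07 (SE 0.35, adjusted p = 0.0245), a call lost under 5 of 18 alternatives, with adjusted p from 0.0176 to 0.099. Hoxc13 fell by 0.30 (SE 0.066, adjusted p = 2.92e-03).

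Among the genes that rose after washout, Hoxc11 changed most. It measured 4.56, 4.17 and 4.001 CPM in Mock, 6.44, 7.57 and 6.40 in Auxin, then 12.3, 11.5 and 11.3 in Reintroduction. The 3 groups did not overlap, and Reintroduction was the highest. The rise from Auxin was 0.79 on the log2 scale (SE 0.088, 1.72-fold, adjusted p = 2.64e-05). Hoxc4 rose by 0.67 (SE 0.087, adjusted p = 7.49e-05), the same size as its fall in Auxin, and Hoxc10 rose by 0.43 (SE 0.091, adjusted p = 2.41e-03). Hoxc8 rose by 0.54 (SE 0.16, adjusted p = 0.0174). That call was lost without Reintroduction replicate 2 or 3, and the value was 0.35 without Auxin replicate 2 (adjusted p from 4.62e-03 to 0.0619 over the alternatives). Hoxc5 rose by 0.42 (SE 0.16, adjusted p = 0.0474), a call lost under 11 of 19 alternatives, with adjusted p from 0.0179 to 0.191. Hoxc6 and Hoxc9 had values of 0.39 (SE 0.17) and 0.26 (SE 0.15) with no call. Without Reintroduction replicate 3, the higher genes numbered 3 in place of 5. With length and GC trends removed they numbered 8, among them Hoxb9 at 0.17, the only one outside HoxC.

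The genes with no call after washout included Hoxb9 and Hoxc12, which were among the highest per kilobase. Hoxb9 had a log2 fold change of 0.08 (SE 0.063) and Hoxc12 of -0.26 (SE 0.13). At lower levels, Hoxb13 had 0.27 (SE 0.18) and Hoxa13 had -0.13 (SE 0.37). Hoxa13 held only 60 counts over the Auxin group and 51 over Reintroduction. The value of Hoxb9 was -0.0023 with scaling by total counts, and that of Hoxa13 was 0.08 without Auxin replicate 2 or without Reintroduction replicate 2. Hoxa2 (-0.94, SE 0.59), Hoxa3 (-1.09, SE 0.49), Hoxb8 (-0.52, SE 0.39), Hoxa10 (-0.72, SE 0.60) and Hoxa9 (0.03, SE 0.98) had few counts and wide errors. Of these, Hoxa3 had Reintroduction libraries wholly below those of Auxin. It was called lower under 3 of 18 alternatives, with adjusted p from 0.0325 to 0.269.

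Set against Mock, the Reintroduction libraries still held most of the tested Hox genes at a higher level. By the same test, 17 of the 25 tested were higher, 1 was lower (Hoxd13) and 7 had no call, with a median log2 fold change of 1.10 against 0.03 over all genes tested. Over all genes tested, 68.1% were called, 34.7% as higher and 33.4% as lower. Libraries of the groups did not overlap for 16 Hox genes higher in Reintroduction and 1 lower, against 38.2% and 37% of all genes tested. Each pair of the 3 comparisons shares a group of libraries, so their values are given side by side and are not independent.

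The HoxD and HoxA genes that had risen most remained above Mock after washout. Hoxd9 stood 4.23 above Mock on the log2 scale in Reintroduction (SE 0.24, adjusted p = 9.04e-08) beside 5.25 in Auxin. Hoxd8 stood 3.07 above (SE 0.29, adjusted p = 3.90e-06) beside 4.77, and Hoxa5 stood 2.50 above (SE 0.33, adjusted p = 5.11e-05) beside 4.30. Hoxb4 stood 1.76 above (SE 0.29) beside 2.80.

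Hoxa7 and Hoxb7, by contrast, had values against Mock of -0.20 (SE 0.15, adjusted p = 0.232) and 0.07 (SE 0.28, adjusted p = 0.845) in Reintroduction, with libraries that overlapped Mock. These paralogues had both risen in Auxin and fallen after washout. The value of Hoxa7 was 0.03 where length and GC trends were removed. Hoxc4 also overlapped Mock, at 0.01 (SE 0.085), a value that was -0.02 with DESeq2's size factors. With length and GC trends removed, Hoxc4 was called higher than Mock, at 0.29 (edgeR adjusted p = 0.0194, in a range over the alternatives of 0.0194 to 0.992).

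For 6 of the 9 HoxC genes the distance from Mock was larger after washout than in Auxin, and 4 of these (Hoxc5, Hoxc8, Hoxc10 and Hoxc11) were the ones called between those groups. The log2 fold change against Mock was 0.68 in Auxin and 1.46 in Reintroduction for Hoxc11, 1.14 and 1.68 for Hoxc8, 1.14 and 1.40 for Hoxc9, and 0.72 and 1.15 for Hoxc10. It was 0.42 and 0.84 for Hoxc5 and 0.43 and 0.81 for Hoxc6. At the tail end of the cluster the order was the opposite, with 1.09 and 0.84 for Hoxc12 and 0.78 and 0.48 for Hoxc13. With length and GC trends removed, this order held, with 1.70 in Auxin and 1.30 in Reintroduction for Hoxc12 and 0.97 and 0.78 for Hoxc13. Between Auxin and Reintroduction, Hoxc13 was called (-0.30, SE 0.066). Hoxc12 was not (-0.26, SE 0.13), and its libraries overlapped.

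In HoxB, Hoxb9 (1.51 and 1.59) and Hoxb13 (1.74 and 2.01) held in Reintroduction the distance from Mock that they had in Auxin. Hoxa13 was at 2.59 and 2.46. Hoxb8 was called at 1.10 (SE 0.44, adjusted p = 0.0434) although its libraries overlapped Mock. That call was lost under 8 of 18 alternatives, with adjusted p from 0.0151 to 0.166, and the value was 0.72 without Reintroduction replicate 2. Hoxa2 was called at 2.57 (SE 0.87, adjusted p = 0.0211), with 4 of 16 alternatives losing the call, adjusted p from 5.01e-03 to 0.0656, and a value of 5.88 without Mock replicate 1. Hoxd13 was lower than Mock, at -1.11 in log2 units (SE 0.18, adjusted p = 2.48e-04). Hoxa3 (0.64), Hoxa4 (0.93), Hoxa9 (-0.33) and Hoxa10 (0.36) had no call.

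Summed by cluster, these changes left the Hox total unequal in make-up between Auxin and Reintroduction. The sum over all 38 genes was 43.7 ± 0.609 CPM in Mock, 84.5 ± 0.671 in Auxin and 83.9 ± 0.842 in Reintroduction (SD, n = 3). The Auxin libraries (84.2, 85.2 and 83.9) and the Reintroduction libraries (84.6, 84.3 and 83.0) overlapped, and both lay above Mock (43.5, 44.3 and 43.2). Within that total, HoxC went from 54.3 ± 1.39 CPM in Auxin to 60.7 ± 1.23 in Reintroduction, and its share went from 64.3% to 72.3%, beside 77.7% in Mock. HoxA went from 5.61 ± 0.388 to 2.57 ± 0.0179 CPM and HoxD from 6.03 ± 0.478 to 2.52 ± 0.304, each without overlap between groups. HoxB was at 18.6 ± 0.615 and 18.2 ± 0.764 CPM with overlapping libraries, most of it Hoxb9. These sums are dominated by the most abundant genes, and no test was made on them.

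**Figure D4:**
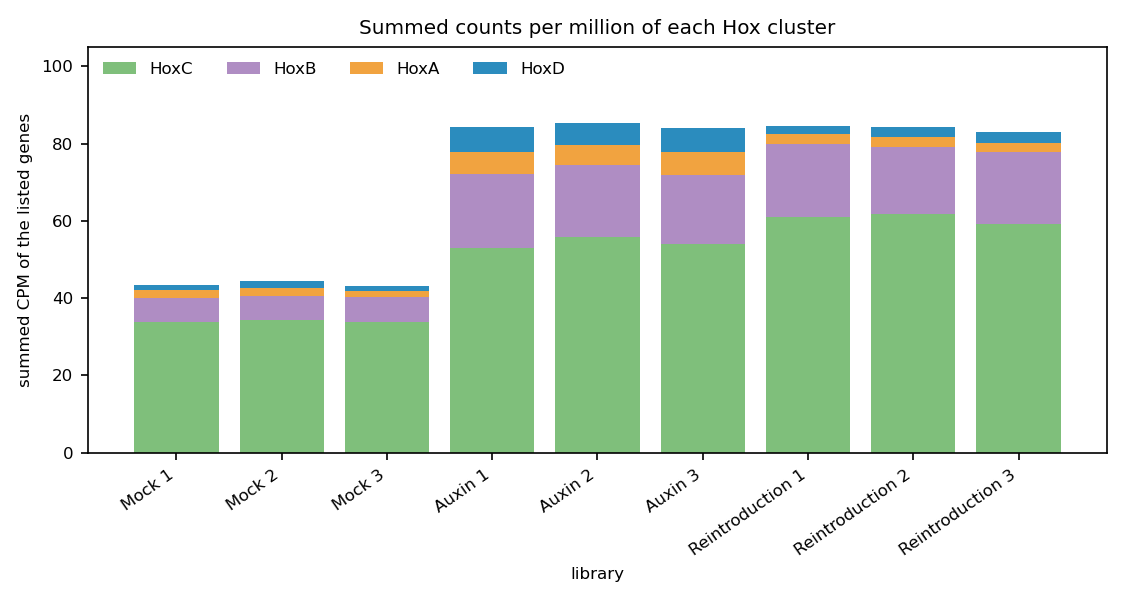
Summed CPM (vertical axis, from 0) of the listed genes of each Hox cluster, stacked, in each of 9 libraries. Mock libraries reach 43.2 to 44.3 CPM, and Auxin and Reintroduction libraries reach similar totals of 83.0 to 85.2 CPM, with less HoxA and HoxD and more HoxC in Reintroduction.

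Of 19 listed noncoding genes of the clusters, 5 were at 0 in all libraries and 7 had enough counts for a test. The 7 tested were higher in Auxin than in Mock, with a median log2 fold change of 1.44, where 38.4% of all genes tested were higher and 34.8% lower. As with the Hox genes, a gene low in Mock can pass the filter through another group, and Hoxd3os1 had 2, 2 and 0 counts in the Mock libraries and Hoxaas3 had 3, 7 and 1, so the count does not stand for all 19. Gm53, a noncoding gene between Hoxb13 and Hoxb9, went from 9.39 ± 0.415 CPM in Mock to 25.5 ± 1.498 in Auxin and 29.3 ± 0.335 in Reintroduction (SD, n = 3). In log2 units it rose by 1.44 in Auxin (SE 0.063, adjusted p = 4.73e-09). Mir196a-1, whose microRNA targets Hox transcripts, rose by 1.20 (SE 0.15) as counted from its precursor region in polyadenylated RNA. Hotairm1 rose by 2.56 (SE 0.33), with 43.1% of its exon bases shared with other genes. Hotair, Halr1, Hoxd3os1 and Hoxaas3 were the remaining 4. After washout, Gm53 was the only one of the 7 called against Auxin, as higher by 0.20 (SE 0.061, edgeR adjusted p = 0.0168). Of all genes tested, 25.5% were higher and 25.5% lower there. Against Mock, 6 of 7 were higher in Reintroduction, beside 34.7% of all genes tested.

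The DNA-binding partners of Hox proteins, the TALE homeodomain genes, were called higher in Auxin for 6 of 9 tested, lower for 1 and not called for 2, beside the same 38.4% and 34.8% of all genes tested. Meis2, a cofactor that binds DNA together with Hox proteins, went from 2.51 ± 0.399 CPM in Mock to 37.8 ± 2.44 in Auxin and 38.7 ± 0.341 in Reintroduction, which in Auxin was a log2 change of 3.91 (SE 0.10, adjusted p = 1.64e-10). Pbx3 rose by 1.66 (SE 0.069) and Pknox2 by 2.80 (SE 0.19). After washout 2 of the 9 were higher than in Auxin and 3 were lower, beside 25.5% higher and 25.5% lower of all genes tested. Pbx3 was among the lower (-0.70, SE 0.067), while Meis2 had no call (0.03, SE 0.084).

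Of 10 tested upstream regulators of the clusters, 5 were higher in Auxin and 4 were lower, beside the 38.4% and 34.8% of all genes tested, with a median log2 fold change of 0.37. Men1, which tethers the activating methyltransferase MLL1 to Hox genes, had a log2 fold change of -1.19 (SE 0.070) in Auxin and of 0.66 (SE 0.070) after washout. Gdf11, a signal for trunk-to-tail Hox expression, rose by 0.87 (SE 0.073) and then by 0.26 (SE 0.071). After washout 4 of the 10 were higher and 3 lower, beside 25.5% and 25.5% of all genes tested.

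Of 12 tested genes of retinoic acid signalling, a classic inducer of the clusters, 4 were higher in Auxin and 5 were lower, which is near the 38.4% and 34.8% of all genes tested. The carrier proteins Crabp1 and Crabp2 had log2 fold changes in Auxin of -3.79 (SE 0.20) and -2.53 (SE 0.17), and the receptor Rara of -0.78 (SE 0.062). After washout 3 of the 12 were higher and 2 lower, beside 25.5% and 25.5% of all genes tested.

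Of 6 tested genes of the Evx and Dlx homeobox families, 1 was higher in Auxin (Dlx5, by 2.04, SE 0.49) and 2 were lower (Evx1 and Dlx4). The shares of all genes tested were 38.4% and 34.8%. The Evx genes lie next to a Hox cluster, while the Dlx genes lie farther off on the same chromosomes and do not describe the borders of the clusters. Evx1, next to HoxA, went from 3.63 ± 0.323 CPM in Mock to 0.409 ± 0.0408 in Auxin and 2.11 ± 0.286 in Reintroduction (SD, n = 3). In log2 units that was -3.14 (SE 0.16, adjusted p = 1.22e-08) in Auxin and 2.37 (SE 0.16) after washout. Of 14 tested flanking genes of other kinds, 6 were higher in Auxin and 5 were lower, near the 38.4% and 34.8% of all genes tested, with a median of 0.18. Hnrnpa1, a flanking gene of HoxC, had a log2 fold change of -1.21 (SE 0.050), and Cbx1 and Snx11, flanking HoxB, of -0.77 (SE 0.048) and -0.94 (SE 0.065). Of 23 tested core genes of PRC2 and PRC1, the complex that acts with it, 9 were higher in Auxin and 8 were lower, again near the 38.4% and 34.8% of all genes tested. Bmi1, a PRC1 subunit, rose by 2.00 (SE 0.12), and Eed, a PRC2 core subunit, had a log2 fold change of -0.77 (SE 0.046). The test of a difference between these lists and the Hox genes was not made.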

How the data were processed

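Polyadenylated RNA of 9 libraries (Mock, Auxin and Reintroduction, 3 each) was sequenced as 75 bp read pairs. The authors deposited 1 table of unnormalised gene counts per library. Per the file headers, featureCounts 2.0.6 counted exons of an mm10 annotation, with neither strand nor pair counting set, so each mate is a count. Trim Galore 0.6.10, FastQC 0.12.1, Bowtie2 2.5.3 and SAMtools 1.20 are also listed, per the submitters' processing notes, without their roles. Gene positions (mm10, 1-based) come from the count tables, and promoters from RefSeq (GRCm38.p6). Symbols matched 48058 of 48440 genes.

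Genes passing edgeR's filterByExpr (20838) were fitted in 1 quasi-likelihood model of group over all 9 libraries, with TMM factors of 0.905 to 1.08 and a common biological coefficient of variation of 9.15%. Tests were two-sided. The Benjamini-Hochberg adjustment ran over all 20838 genes, with calls at under 0.05. CPM, means and SDs were computed from the counts. The software was edgeR 4.0.16, limma 3.58.1, DESeq2 1.42.0 and, for length and GC trends, mgcv 1.9.3, in R 4.3.3. The script was tested on simulated data. Totals of 44341283 to 113931419 counts set the precision, and genes with few counts have wide errors.

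The Hox genes and other lists were chosen with earlier results of these data known. Values in every library are given for the 3 members of each cluster with the largest called change in Auxin against Mock, members called lower than Mock, and the called member of each cluster with the highest length-scaled level. Hoxc11 was added after its values were seen. From other lists, the 3 genes with the smallest p-value are named. Promoters, but no protein sequences, are shown. Some genes are not reported here, whatever these rules select.

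Alternatives were DESeq2's size factors and Wald test, total counts, no filter, a filter of 1 CPM in 3 libraries, the compared groups alone, a replicate block, removal of length and GC trends, that removal with the block, counts halved, and each library left out. A pair of alternatives for length-scaled levels used total counts and exon bases no other gene shares.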

Additional observations from a re-analysis of the deposited data

How the results depend on the processing

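No called Hox gene changed direction under the alternatives run. Calls that held under every alternative giving a value numbered 20 of 22 between Auxin and Mock, 11 of 14 between Reintroduction and Auxin, and 16 of 18 between Reintroduction and Mock. Of the tested Hox genes without a call, 0 of 3, 5 of 11 and 2 of 7 gained one under some alternative, in the same order. The count of Hox genes higher in Reintroduction than in Auxin was 5, and 8 with length and GC trends removed. It ranged from 3 to 5 when a library was left out, with the lowest value without Reintroduction replicate 3. The cause was not tested. Low counts limit Hoxa2, Hoxa9 and Hoxa10 most, and 13 genes were too low to test.

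Changes of sign were limited to genes without a call. With total counts, Hoxd13 was 0.13 in Auxin against Mock, and Hoxa9 -0.04 and Hoxb9 -0.0023 in Reintroduction against Auxin. Total counts moved the median of all genes tested to 0.26, -0.08 and 0.16 in the same order of comparisons. They moved the share of higher calls among all calls from 52.4% to 63.3%, from 50.0% to 40.1% and from 50.9% to 59.9%. The Hox calls were then 21 higher and 1 lower, 4 and 9, and 18 and 1. With length and GC trends removed, Hoxd13 was 0.01 in Auxin against Mock and Hoxa7 0.03 in Reintroduction against Mock, and with the block as well these were 0.02 and 0.02. Hoxc4 in Reintroduction against Mock was -0.02 with DESeq2's size factors and -0.01 with its Wald test. It was called higher, at 0.29, with length and GC trends removed.

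Leaving out 1 library gave ranges that crossed 0. In Auxin against Mock, Hoxa9 ranged from -1.82 to 0.26 and Hoxd13 from -0.18 to 0.00036. In Reintroduction against Auxin, Hoxa9 ranged from -1.17 to 1.47 and Hoxa13 from -0.37 to 0.08. In Reintroduction against Mock, Hoxa9 ranged from -1.54 to 0.28, Hoxa10 from -0.12 to 0.78, Hoxb7 from -0.13 to 0.25 and Hoxc4 from -0.06 to 0.03.

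With the replicate number as a block, the Hox calls were 20 higher and 1 lower between Auxin and Mock, 5 and 9 between Reintroduction and Auxin, and 16 and 1 between Reintroduction and Mock. Deviations of same-numbered libraries correlated at -0.172 to 0.0547, so the number was not taken as a pairing. Under the block, Hoxc6 in Auxin against Mock had 0.42 (adjusted p = 0.0757) and Hoxb8 in Reintroduction against Mock had 1.08 (adjusted p = 0.0629).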
